A study of Drosophila melanogaster with 3 samples.

Results

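E2F, Rb and G1-S regulator genes of Drosophila melanogaster were examined for binding of the tagged CG4820 protein. The 10 genes were chosen by their function in the cell cycle, with the peak values of these same samples already known, out of 13945 protein-coding genes on the 6 main chromosome arms. They are E2f1, E2f2, Dp, Rbf, Rbf2, CycE, Cdk2, dap, stg and fzr. For each gene, peaks were taken whose summit lay in the gene body or within 2 kb of either end, a stretch called its window. Since the choice rests on these peak values, counts and ranks are given as a description, with no test.

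The material was whole embryos of mixed sex, 0 to 16 h old, from a single transgenic line that stably carries CG4820 fused to GFP at the C-terminal end. Chromatin was sonicated to 200 to 800 bp and precipitated with an antibody against GFP, and 3 biological replicates were made of this 1 group, with no mutant or untreated group beside it. A whole embryo mixes many cell types, so a low signal from all cells and a high signal from few cells cannot be told apart. The values are peak lists: a candidate list for each replicate (26597, 27004 and 26145 peaks for replicates 1, 2 and 3), a candidate list of the pooled replicates (21656 peaks) and an optimal list (4876 peaks) that the authors kept for reproducibility. All 4876 optimal peaks were also the 4876 highest-signal peaks of the pooled list, so the optimal list ended at a pooled signal of 100.8. The signal is the authors' own enrichment value, used here to rank peaks within a list. The lists carry no read totals, so the depth behind them is unknown. The labels do not say which promoter drives the fusion, and no untagged line or control library was analysed here.

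E2F proteins bind DNA as a pair with Dp and switch genes for S phase. In flies E2f1 mainly activates them and E2f2 represses them, and the Rb-type proteins Rbf and Rbf2 bind E2F and hold transcription down. Cyclin E with its kinase Cdk2 drives entry into S phase and inactivates Rbf, and dap encodes an inhibitor of that kinase. Later in the cycle the Cdc25-type phosphatase string, from stg, starts mitosis, and fizzy-related, from fzr, activates the ubiquitin ligase APC/C that removes mitotic cyclins. In embryos, stg transcription times the divisions after the blastoderm stage, and dap and fzr act when epidermal cells stop dividing.

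The DNA under summits is shown for E2f1, CycE and fzr, which had optimal summits near their own starts. The E2f1 summit of highest signal, farther from any E2f1 start, is added. Rbf2 and Cdk2, whose candidates at the start fell short of the optimal list, are also shown, and both of these hold a DRE. The start candidates of E2f2, Rbf, dap and stg fell short too and are not printed. Those of E2f2, Rbf and stg held none of the motifs listed below. Dp had optimal summits near its own starts too, but its DNA is not printed. Each line holds the 101 bases centred on a summit, 5′ to 3′ on the strand of the named gene, read from RefSeq's copy of the dm6 assembly. Capitals mark matches to the motifs searched, on either strand: the E2F sites TTTCGCGC, TTTGGCGC and TTTCCCGC, the shorter E2F core (TTCCCG or else TTCGCG or else TTGCCG or else TTGGCG), the DRE site TATCGATA, the word GGTCACAC and the word CGATA. TTTCGCGC, TTTGGCGC and TTTCCCGC each hold a core, so these overlap. A DRE holds CGATA on both strands.
E2f1 summit 190 bp upstream of an internal start, minus strand of chr3R:21633213-21633313: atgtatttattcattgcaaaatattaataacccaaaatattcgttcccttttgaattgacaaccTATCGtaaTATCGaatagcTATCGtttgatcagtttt
E2f1 summit of highest signal, in an intron, minus strand of chr3R:21641735-21641835: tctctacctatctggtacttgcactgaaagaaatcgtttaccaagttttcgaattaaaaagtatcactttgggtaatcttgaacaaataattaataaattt
CycE summit 449 bp upstream of an internal start, minus strand of chr2L:15747009-15747109: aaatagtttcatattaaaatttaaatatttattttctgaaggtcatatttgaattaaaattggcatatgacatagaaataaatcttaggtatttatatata
CycE summit 651 bp upstream of the same start, minus strand of chr2L:15747211-15747311: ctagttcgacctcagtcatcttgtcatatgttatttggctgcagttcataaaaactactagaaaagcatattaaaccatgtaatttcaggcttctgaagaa
fzr summit 442 bp upstream of its first start, minus strand of chrX:4679929-4680029: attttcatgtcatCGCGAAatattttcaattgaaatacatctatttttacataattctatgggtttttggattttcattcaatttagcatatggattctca
Rbf2 pooled candidate 31 bp upstream of its start, plus strand of chr3R:15965365-15965465: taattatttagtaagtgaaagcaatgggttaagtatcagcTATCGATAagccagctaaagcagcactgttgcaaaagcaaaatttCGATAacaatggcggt
Cdk2 pooled candidate 41 bp upstream of its start, plus strand of chr3R:20735532-20735632: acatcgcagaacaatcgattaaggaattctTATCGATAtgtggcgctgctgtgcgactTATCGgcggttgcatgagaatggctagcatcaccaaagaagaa

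None of the E2F sites of 8 letters was found within 50 bp of the members' 15 optimal summits. These sites were rare at the 4876 optimal summits altogether, with 0.205% for TTTCGCGC, 0.431% for TTTGGCGC and 0.267% for TTTCCCGC. An E2F core of 6 letters was at 2 of the 15 summits, against 8.04% of all optimal summits. These were the fzr summit printed above and the weak Dp summit of signal 128.9, which is nearest to a start of Fsn, and the leading Dp summit held none. The DRE, the site of the factor DREF that many replication genes carry, was at 0 of 15 and at 1.74% of all optimal summits. At least 2 CGATA words, which also make up the site of the insulator protein BEAF-32, were at 1 of 15, the E2f1 promoter summit printed above with 3 of them, against 3.65% of all. The stretch from 250 bp before to 50 bp after each start is longer, and the share that held a motif was higher there over all genes too. TTTGGCGC was in 2 of their 21 promoters, at CycE and stg, against 2.36% of 19253 promoters. The DRE was in 2 of 21, at Rbf2 and Cdk2, against 7.98%, and there it lay within 50 bp of the summit of a candidate that was not optimal. GGTCACAC, part of the site of the promoter factor M1BP, was at 0 of the 15 summits, against 0.759%, and in 1 of 21 promoters, at Rbf, against 6.72%. An E2F core was in 13 of 21 promoters, those of 7 genes, against 40.3%. At least 2 CGATA words were in 3 of the 21, at E2f1, Rbf2 and Cdk2, against 22.0% of all promoters.

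Optimal summits lay in the windows of 5 of the 10 genes, E2f1, E2f2, Dp, CycE and fzr, against 35.2% of all protein-coding genes. Rbf, Rbf2, Cdk2, dap and stg had none. The 15 summits were unevenly shared, with 6 at E2f1, 4 at Dp, 2 each at CycE and fzr and 1 at E2f2. At least 4 optimal summits were in the windows of 1.61% of all genes, and at least 6 in 0.574%. Long genes offer more room for summits: the members' gene bodies had a median length of 4.18 kb, against 2.17 kb over all protein-coding genes. All 3 members with a body of 10 kb or more, E2f1, CycE and fzr, held an optimal summit, against 57.2% of genes of that length. Of the 7 shorter members 2 did, Dp and E2f2, against 31.6% of shorter genes. Per 10 kb of window the members had 1.08 optimal summits, against 0.507 over all genes' windows, and Dp had 4.09. Every summit was counted by itself, also the pairs 212 bp apart at Dp and 202 bp apart at CycE.

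**Figure D1:**
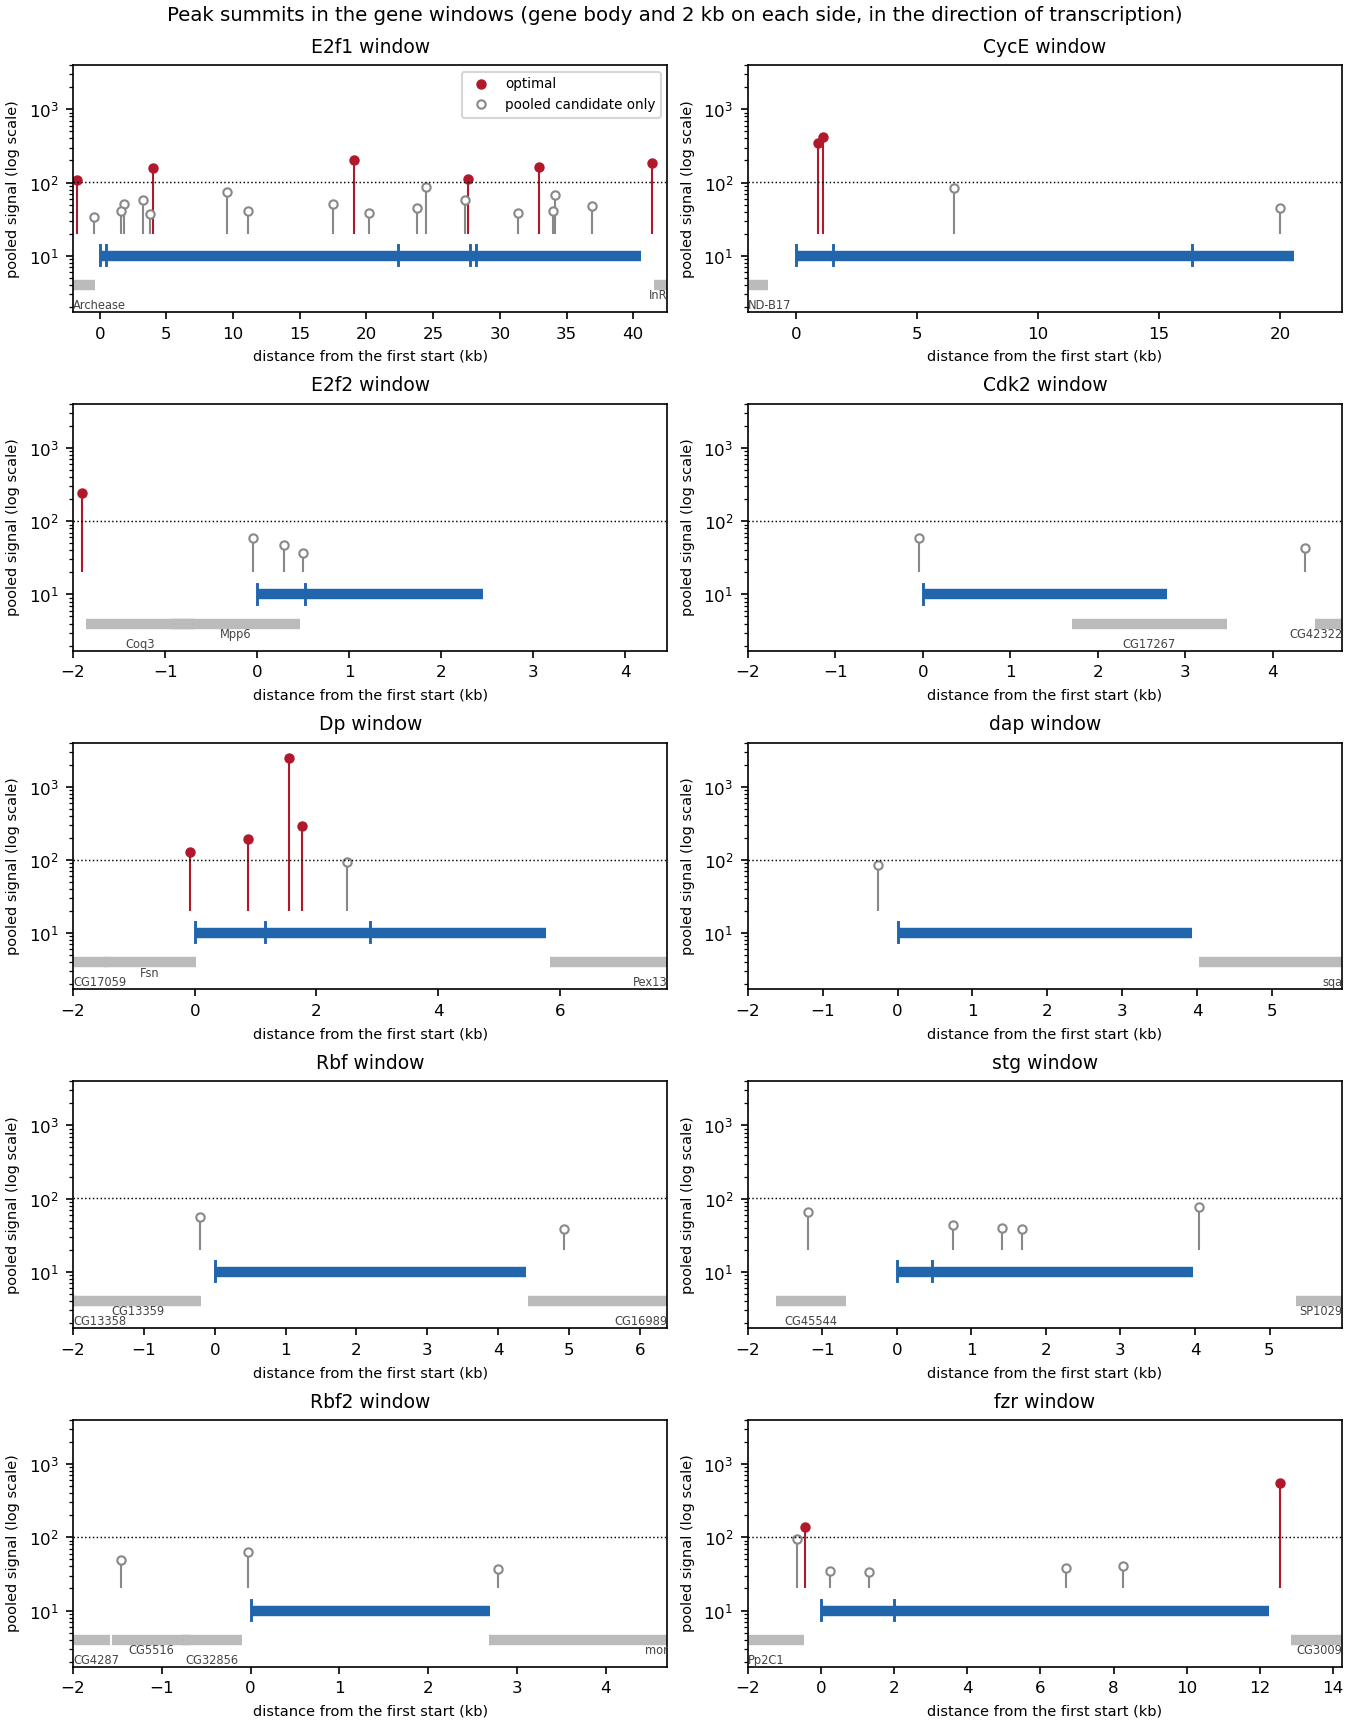
Pooled signal (log scale) of every summit in each gene's window against the distance in kb from the gene's first start, in the direction of transcription; red points are optimal summits, open points are pooled candidates only, and the dotted line is the signal at which the optimal list ends. Blue bars are the gene bodies with their starts as ticks and grey bars are neighbouring protein-coding genes; Dp and CycE carry their highest summits between starts, while the highest fzr summit and the only E2f2 optimal summit lie beside neighbouring genes.

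Closest to the window limit of 2 kb were an E2f2 summit 1900 bp upstream, inside it, and a summit 2.18 kb past the end of Dp, outside it. Not every summit in a window was nearest to its member. For 10 of the 15 summits the nearest protein-coding start was the member's own, 66.7%, against 52.4% of the 7700 pairs of a gene and an optimal summit in its window. The other 5 were nearer to the start of InR, Archease, Coq3, Fsn or CG3009. No summit fell in an exon of its member. In all, 9 lay in introns of the member, 4 upstream of the gene body and 2 downstream of it. The 9 intronic ones include summits just upstream of internal starts, and several lay in E2f1, whose body spans 40.57 kb. No share over all genes' windows is given for these positions, so they describe these 15 summits only. The median signal of the 15 was 193.1, against 171.0 over the optimal list, and 9 of them were above that list median. Their windows of 101 bases had a median A+T content of 65.3%, against 68.3% over all optimal summits, with a range from 43.6% to 83.2%.

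Dp, the partner that both E2F proteins need to bind DNA, carried the highest signal of the group by far. Its gene (FBgn0011763, dm6, arm 2R, 13222433 to 13228202, plus strand) has 3 starts. The highest summit lay in an intron, 399 bp downstream of the second start, in a peak from 13223740 to 13224293 whose signal of 2433.24 was rank 19 of the optimal list. Its rank was 14 in replicate 1, 21 in replicate 2 and 23 in replicate 3, with replicate signals of 830.1, 922.4 and 673.4 on each list's own scale. The replicate summits fell within 7 bp of each other. A second optimal summit, 212 bp further on and in an exon of lncRNA:CR43918, shared most of that interval and had a signal of 287.0 and rank 1108. It ranked 1206, 566 and 888 in replicates 1 to 3.

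The remaining Dp summits were weaker. One lay 280 bp upstream of the second start, in an intron, with a signal of 193.1 and ranks of 2931, 2025 and 1159 in replicates 1, 2 and 3. The other lay 70 bp upstream of the first start and 25 bp upstream of a start of Fsn, the neighbour on the opposite strand, inside a 5' UTR of Fsn. Its signal was 128.9, with ranks of 3210, 4257 and 3752. This shared promoter had the lowest A+T content of the 15 windows, 43.6%. A further candidate 388 bp upstream of the third start had a pooled signal of 92.9, just under the end of the optimal list, and ranks of 3426, 8305 and 8125. Every optimal Dp summit was among the 4876 highest-signal peaks of each replicate, and Dp was the only member with such a replicate peak within 500 bp of a start in all 3 replicates, against 15.0% of all genes.

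E2f1, the activating E2F, held the most summits, none of them among the strongest. The gene (FBgn0011766, arm 3R, 21620304 to 21660871, minus strand) spans 40.57 kb and has 5 starts. The highest summit, 201.6 in signal and rank 1928, lay in an intron. It was 3291 bp upstream of the nearest internal E2f1 start and 3133 bp downstream of a start of lncRNA:CR46056. It ranked 1787, 1945 and 2210 in replicates 1 to 3, the narrowest spread among the 6 E2f1 summits. Other intronic summits lay 4737 bp downstream of a start (signal 161.9, replicate ranks 3453, 2691 and 2428) and 3528 bp downstream of another (155.6, ranks 1706, 3131 and 4284). These 3 intronic summits were in the 4876 highest-signal peaks of every replicate.

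The only E2f1 promoter summit was weak and less reproducible. It lay 190 bp upstream of an internal start, in an intron of the longer transcripts and in an exon of the antisense RNA gene asRNA:CR46055, with a signal of 112.1 and rank 4260. Its rank was 5377 in replicate 1, 3414 in replicate 2 and 7239 in replicate 3, so only replicate 2 had it among its 4876 highest peaks. The E2f1 summits at the edges of its window were nearer to neighbouring genes. The downstream one (183.6, ranks 3073, 1949 and 2124) lay 141 bp upstream of a start of InR, the insulin receptor gene, and the replicate summits were within 3 bp. The upstream one lay in an intron of Archease, 367 bp downstream of its start and 1734 bp upstream of E2f1. Its signal of 108.2 was the lowest among the 15, and its ranks of 2550, 5503 and 13823 were the most spread, with replicate 1 alone supporting it.

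E2f2, the repressing E2F, had no optimal summit at its own start. The only one in its window (FBgn0024371, arm 2L, 21154293 to 21156749, minus strand) was 1900 bp upstream, just inside the limit of 2 kb, and 38 bp upstream of Coq3, a gene of ubiquinone synthesis. Its signal was 239.5, rank 1492, with replicate ranks of 2337, 1577 and 1220 and summits within 5 bp. At the E2f2 start itself, which lies inside the neighbouring gene Mpp6 on the other strand, the pooled list held a candidate 43 bp upstream with a signal of 59.7 and rank 9107. The nearest overlapping replicate candidates ranked 5381, 13073 and 19806, with summits up to 339 bp apart. Those of replicates 1 and 3 lay 42 and 50 bp upstream of this start, but that of replicate 2 lay 289 bp downstream of it. At the second E2f2 start, replicates 2 and 3 had higher-ranked candidates, 24 and 44 bp upstream, at ranks 7405 and 5784.

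Neither Rb family gene held an optimal summit. Rbf, the main fly homologue of Rb (FBgn0015799, arm X, 797090 to 801479, minus strand), had 2 pooled candidates. The higher one, 207 bp upstream of its start and in the 3' UTR of CG13359, had a signal of 56.2 and rank 9810. It ranked 10796 in replicate 1 and 16081 in replicate 2, and replicate 3 had no overlapping candidate. The nearest optimal summit lay 25.21 kb away, the longest such distance in the group. Rbf2 (FBgn0038390, arm 3R, 15965446 to 15968138, plus strand) had a candidate 31 bp upstream of its start with a signal of 63.1 and rank 8499. Its ranks of 9453, 9169 and 8725 differed little between replicates, although none was among the 4876 highest.

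CycE, encoding cyclin E (FBgn0010382, arm 2L, 15727581 to 15748150, minus strand), carried a pair of strong summits 202 bp apart. Both lay in an intron of the longest transcripts, upstream of the second of its 3 starts by 449 and 651 bp. The nearer summit had a signal of 423.9 and rank 525, in a narrow peak of 176 bp, and ranked 944, 436 and 435 in replicates 1, 2 and 3. The farther one had 344.7 and rank 788, in a peak of 139 bp, and ranked 4211, 491 and 925. Replicate 1 thus placed the farther summit much lower than the other replicates did. Replicate 1 also put the nearer summit 64 bp farther from the start than replicate 3 did, beyond 500 bp, so it had no CycE promoter candidate by the limit used here. The nearer window had the highest A+T content of the 15, 83.2%. No optimal summit lay at the first start or at the third.

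Cdk2, the kinase partner of cyclin E (FBgn0004107, arm 3R, 20735623 to 20738414, plus strand), had no optimal summit. A candidate 41 bp upstream of its start, beside the DRE printed above, had a signal of 59.6 and rank 9137. The nearest overlapping candidates of replicates 1, 2 and 3 ranked 12555, 6381 and 21383, with summits up to 271 bp apart. Those of replicates 1 and 2 lay close to the pooled summit, but that of replicate 3 lay farther upstream. The inhibitor gene dap (FBgn0010316, arm 2R, 9712321 to 9716256, plus strand) held a single pooled candidate, 266 bp upstream of its start, with a signal of 86.4 and rank 5925. It ranked 3821 in replicate 1, 17851 in replicate 2 and 6548 in replicate 3, so replicate 1 alone had it among its 4876 highest peaks.

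The Cdc25 gene stg (FBgn0003525, arm 3R, 29251826 to 29255800, minus strand) had 5 pooled candidates and none in the optimal list. The highest, with a signal of 77.5 and rank 6737, lay past the 3' end of the gene. It was 3578 bp downstream of the nearer stg start but only 1296 bp upstream of a start of SP1029. It ranked 6389 in replicate 1 and 5481 in replicate 2 and had no overlapping candidate in replicate 3. At the stg promoter the highest candidate lay in the gene's 5' UTR, 278 bp past a start, at a signal of 43.6 and rank 14054. Replicate 1 had no overlapping candidate there, and those of replicates 2 and 3, at ranks 12021 and 10438, had summits 443 bp apart. The closest optimal summit outside the window was 9.49 kb upstream, with a signal of 107.8.

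The window of fzr (FBgn0262699, arm X, 4667290 to 4679537, minus strand) held a strong summit and a weak one. The strong one, with a signal of 552.2 and rank 300, lay past the 3' end of fzr and 302 bp upstream of the start of CG3009, 10531 bp from the nearest fzr start. It ranked 303, 415 and 229 in replicates 1 to 3 (315.7 ± 93.6, SD, n = 3). The weak one lay 442 bp upstream of the first fzr start, with a signal of 138.0 and rank 3258. It ranked 5049 in replicate 1, 2658 in replicate 2 and 2756 in replicate 3, so replicate 1 left it just outside its 4876 highest peaks. A neighbouring candidate 642 bp upstream had a signal of 95.03, the highest among the members' peaks that missed the optimal list.

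**Figure D2:**
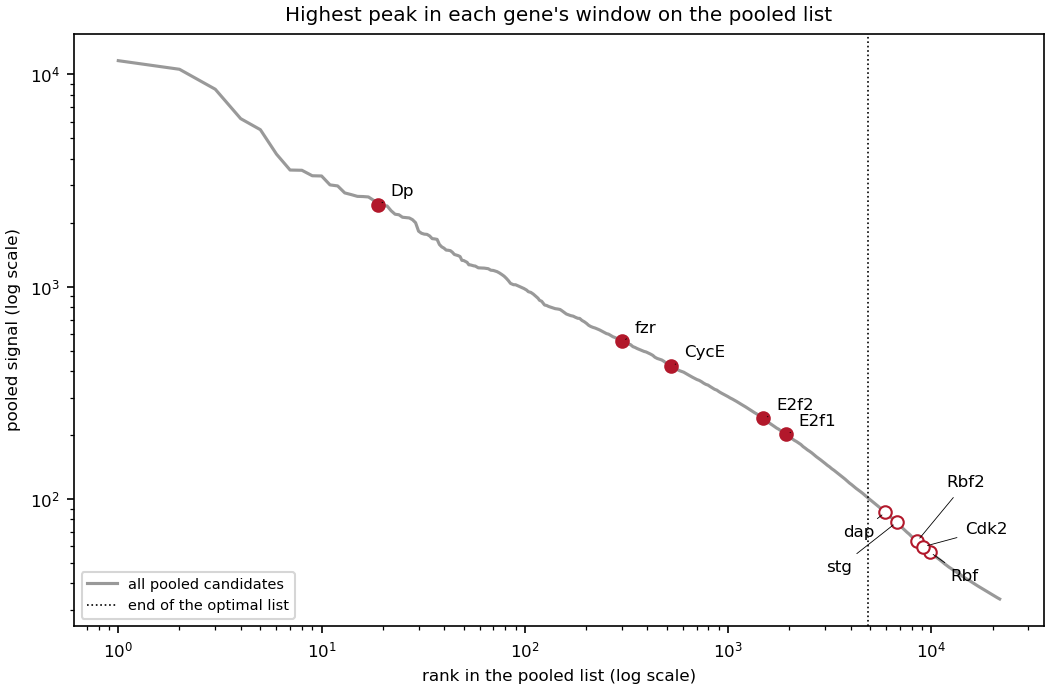
Pooled signal against rank in the pooled list (both log scales) for all 21656 candidates as a grey line, with the highest peak in each gene's window as a point, filled where it is in the optimal list. Dp stands at rank 19, fzr, CycE, E2f2 and E2f1 between ranks 300 and 1928, and dap, stg, Rbf2, Cdk2 and Rbf beyond the dotted end of the optimal list at rank 4876.

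Promoters gave a similar division among the members. An optimal summit within 500 bp of a start was found at 4 of 10 genes, Dp, E2f1, CycE and fzr, against 19.9% of all protein-coding genes. Any start of a gene counted, and E2f1 has 5 starts, Dp and CycE 3 each and fzr 2. Among the members without such a summit, E2f2 and stg have 2 starts and Rbf, Rbf2, Cdk2 and dap have 1. The shares of all genes were not split by number of starts. When both remaining replicates had to support the peak, the count was 2, Dp and CycE, without replicate 2 and also without replicate 3. Without replicate 1 it was 3, with fzr added. With a limit of 250 bp the count was also 2, Dp and E2f1. Counting every pooled candidate, all 10 members had a promoter summit, against 44.9% of all genes, so the members without optimal peaks still had weak candidates at their starts. In the whole windows all 10 also had a pooled candidate, against 71.7% of genes, and a candidate in each replicate, against 78.7%, 77.9% and 77.9% for replicates 1, 2 and 3. The members' windows held 55 pooled candidates in all, of which 40 were outside the optimal list.

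Of the 15 optimal summits, 12 were among the 4876 highest-signal peaks of all 3 replicates, against 3553 of all 4876 optimal peaks (72.9%). All 15 overlapped some candidate of every replicate. The exceptions were the fzr promoter summit, which 2 replicates supported, and the weak E2f1 summits at the internal start and at Archease, which 1 replicate supported each. The optimal list was made from these replicates' lists, so this agreement is partly built in. The leading Dp summit ranked 14 to 23 in the replicates and the strong fzr window summit 229 to 415.

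**Figure D3:**
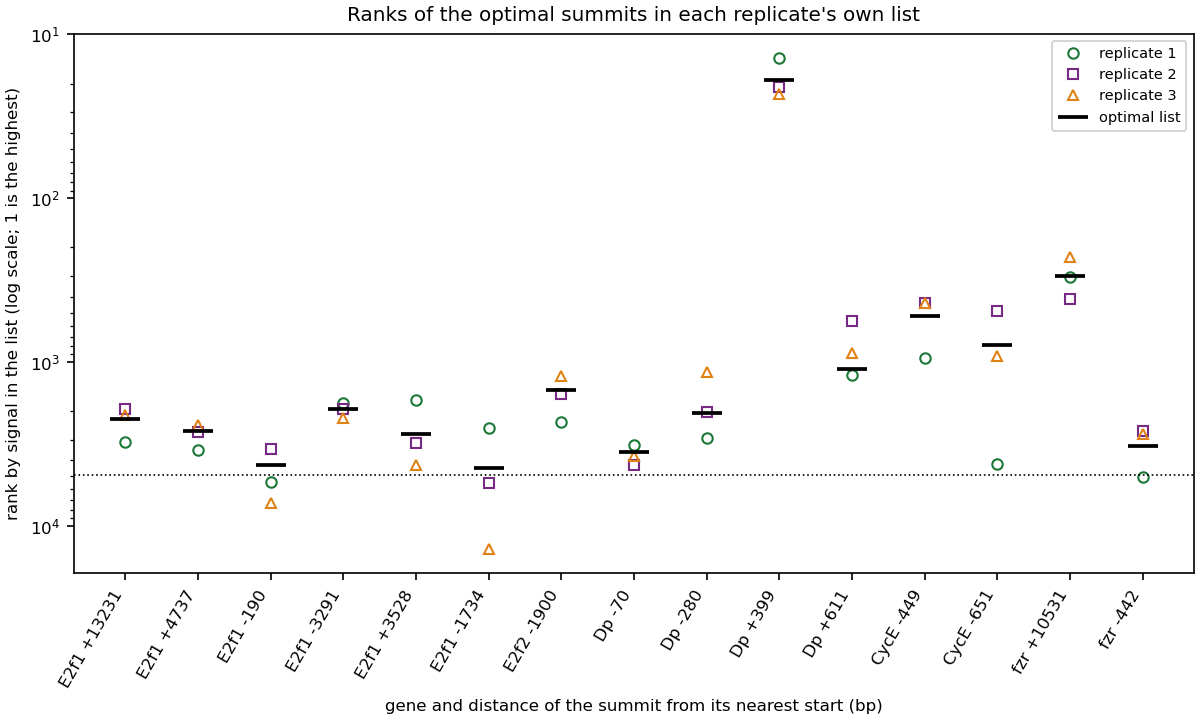
Rank by signal (log scale, highest at the top) of the 15 optimal summits in the optimal list (black bars) and of the overlapping peak with the nearest summit in each replicate's own list (open symbols); labels give the gene and the signed distance in bp from its nearest start, and the dotted line is rank 4876. Dp +399 is at ranks 14 to 23 in the replicates, and E2f1 -1734 is spread from rank 2550 to 13823.

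Other genes of the cell cycle, in 6 lists drawn by function, had an optimal promoter summit in 20 of 59 cases, against 19.9% of all protein-coding genes. Among genes that E2F is known to switch for S phase it was 6 of 16, with signals of 474.5 at RnrS, a ribonucleotide reductase subunit, 330.1 at the MCM helicase gene dpa, 266.2 at Mcm2 and 167.6 at the licensing gene dup, whose summit was nearer to SRPK. Cyclin D, Cdk4, Cdk-activating kinase and checkpoint genes gave 5 of 10, namely the checkpoint kinase genes mei-41 (325.4), tefu (254.1) and lok (177.2), p53 (150.7) and Cdk7 (115.9). The mei-41, tefu and lok summits were nearer to the starts of TH1, Hsc70-4 and barr. The mitotic list of cyclins, Cdk1, Cdc25 and Wee kinases gave 2 of 8, Cdk1 (242.7) and CycB (103.0), and the MMB/dREAM complex, which holds E2f2 and Rbf, gave 2 of 7, lin-52 (373.7) and mip130 (116.7), both nearer to a neighbour's start. The APC/C list, named for the ligase that fizzy-related activates, gave 3 of 13, Cdc16 (311.7), vih (154.8) and APC4 (135.1). SCF genes, whose ligase destroys cyclin E, gave 2 of 5, slmb (136.7, nearer to CG5793) and Cul1 (103.6). The strongest Dp promoter summit, at 2433.24, stood above the highest of these lists, the 474.5 of RnrS.

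**Figure D4:**
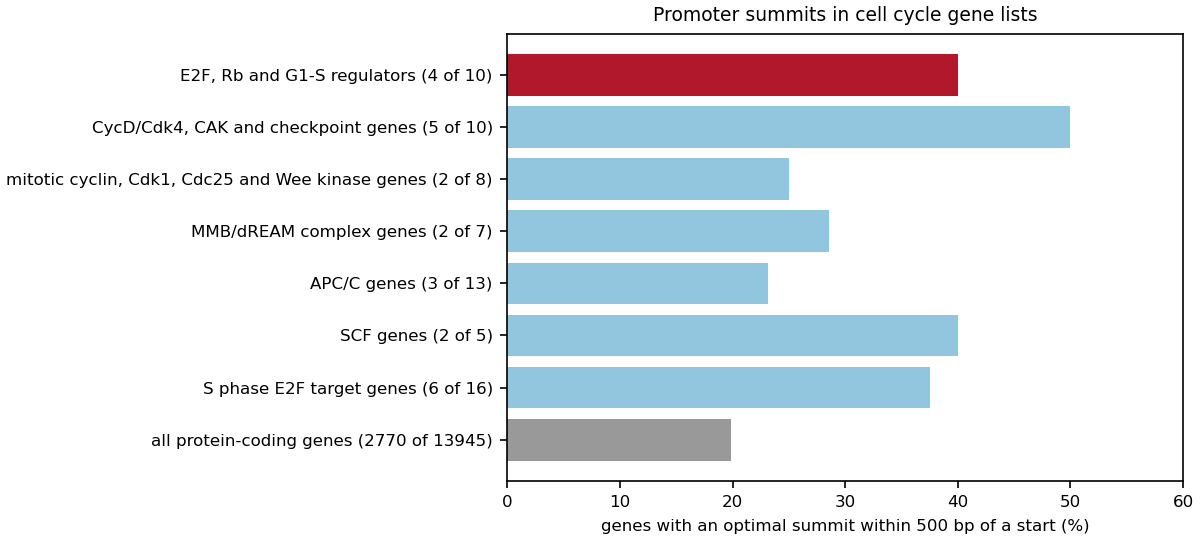
Share of genes (%) with an optimal summit within 500 bp of a start, for the 10 regulators on top, 6 other cell cycle lists below and all protein-coding genes at the bottom, with the counts beside each name. The regulators stand at 4 of 10 and the other lists between 3 of 13 and 5 of 10.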

How the data were processed

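The deposited dm6 peak lists of 3 replicates, the pooled replicates and the optimal set were used. The deposited README files derive each replicate list from that replicate's alignment plus a control, the pooled list from every alignment plus the control, and the IDR-thresholded optimal list from those. The control is not analysed here. Caller, aligner and IDR limit: not given in the sources used here. Each peak's signal is the authors' deposited value, comparable within a list only. The −log10 q-value deposited by the authors has a single value throughout the optimal list and was not used.

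Summits were taken from the deposited offset. Gene models were Ensembl BDGP6.54 release 115 without transposable elements and pseudogenes, and 99.5% of 16304 distinct coding starts read ATG in the RefSeq genome of that assembly. A promoter summit lay within 500 bp of any start of the gene. A replicate supported a peak if at least 1 bp overlapped one of its 4876 highest-signal peaks, and its rank is that of the overlapping candidate with the nearest summit. Motifs were sought on both strands. All 10 members are named with each optimal summit. The highest pooled candidate outside the optimal list is described except at E2f1 and CycE (signals of 87.9 and 84.9). The highest promoter candidate outside that list is described except at E2f1 and fzr (58.4 and 34.9). List genes are named by up to 4 promoter signals (all 5 for the checkpoint list, the fifth added after seeing its values). The members, lists and motifs were chosen with earlier results of these data known. The split of genes at 10 kb and the count of replicate promoter peaks were added after seeing the data. Counting steps were tested on simulated peaks. Tools were Python 3.11.15 with pandas 2.3.3 and NumPy 2.4.6 for counting and matplotlib 3.10.9 for plots.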

Additional observations from a re-analysis of the deposited data

How the results depend on the processing

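The 5 members with an optimal summit became 4 with 1 kb added to each gene end or with summits given to the nearest protein-coding start only, and stayed 5 with peak midpoints, interval overlap, RefSeq gene models or without any 1 replicate. Gene bodies alone gave 3 members, 9 summits and 11.7% of all genes, against 29.6% of genes with 1 kb and 32.3% when non-coding genes were counted. The 15 summits were 13 with 1 kb, 16 by interval overlap and 12 to 13 when a replicate was left out. Leaving out a replicate did not rebuild the optimal list: its peaks were counted where both other replicates supported them. The 4 members with a promoter summit were 2 at 250 bp, 4 at 1000 bp, and 2 to 3 when a replicate was left out. The 12 summits supported by every replicate were 12 to 15 under the other rules of support. All members had the same ends in both gene models, so the RefSeq models could not change the 5 members. With no read totals, the depth behind any peak is unknown, and a candidate that missed the optimal list need not be unbound.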

Other observations

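Beyond the windows, Dp had a further optimal summit 2.18 kb past its 3' end, just outside the limit of 2 kb, with a signal of 260.0 and rank 1306, 147 bp upstream of the start of Pex13, a gene of peroxisome biogenesis. E2f1 had one 5.25 kb past its 3' end inside InR, with a signal of 201.1, about that of its own strongest intronic summit. Around Rbf and Cdk2 the nearest optimal summits were 25.21 kb and 24.07 kb away, at fz3 and CG31195, so both genes lay in stretches without optimal peaks. Rbf2 had its nearest at mor, a Brahma complex gene, 4.96 kb away with a signal of 134.4.

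At the first starts of E2f1 and CycE there was no optimal summit within 500 bp.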
